A study of Mus musculus with 6 samples.

Results

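Glycolysis and hypoxia response genes were examined in dermal fibroblasts sorted from dysplastic and normal mouse ears. The set comprised 34 named genes, of which 19 encode glycolytic enzymes, their regulators and the transporters of glucose and lactate, and 15 belong to the pathway of the hypoxia-inducible factors (HIF) or are known targets of it. A gene was measured where the platform annotation gave at least 1 probe set that names that gene alone. This left 30 of the 34 genes in the comparison, 16 glycolytic and 14 of the HIF pathway, with 70 probe sets, among 18193 genes in all. Gapdh was named alone only by 3 control probe sets, which are given as values outside the test. Each of the 3 probe sets for Bnip3l also names a pseudogene, and Bnip3l, Gpi1 and Eno1 were not analysed here.

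The cancer-associated fibroblasts (CAF) were taken from ears with visible dysplasia of male K14-HPV16 mice, in which the keratin 14 promoter drives human papillomavirus genes in basal keratinocytes and not in the fibroblasts measured. Normal dermal fibroblasts (NDF) came from ears of male non-transgenic FVB/n mice of the same age, 4 months. In both groups the cells were sorted for the surface receptor PDGFRα, and each group had 3 arrays. The labels call the arrays biological repetitions and name 15 mice per genotype, but do not state which mice went to which array, so each p-value reflects only how far these samples spread. The sort marker Pdgfra was at 12.54 ± 0.11 in CAF and 12.46 ± 0.15 in NDF (log2 intensity, SD, n = 3 each).

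Glycolysis splits glucose into pyruvate in the cytosol and yields ATP without oxygen. Glucose enters through facilitative transporters, is trapped by hexokinase, is committed at phosphofructokinase and, when oxygen is short, leaves the cell as lactate. Cells sense oxygen through prolyl hydroxylases (the Egln genes), which mark the HIF α subunits for destruction by the von Hippel-Lindau protein. Without oxygen the α subunits persist, pair with Arnt and switch on genes of glucose uptake, glycolysis, vascular tone and mitophagy. HIF α is regulated mostly at the level of protein, so transcript levels of the subunits do not report its activity. In the stroma of tumours, fibroblasts are known to be able to shift towards glycolysis and to release lactate.

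CAF replicate 3 stood apart from the other arrays, and markers of several other cell types were higher on the CAF arrays. Over all probe sets it correlated with them at r = 0.913 to 0.932, whereas the remaining pairs reached 0.960 to 0.983. The 3′ minus 5′ difference of the Gapdh control probe sets, a measure of RNA integrity, was 1.28 ± 0.12 in CAF and 1.20 ± 0.27 in NDF (log2, SD, n = 3 each). The mean level of the macrophage and dendritic cell markers ranged from 6.80 to 8.0 on the CAF arrays and from 4.84 to 5.29 on the NDF arrays, with 11 of 12 markers higher on every CAF array. Neutrophil markers averaged 7.03 to 8.16 on the CAF arrays and 4.12 to 4.94 on the NDF arrays, with 7 of 10 higher on every CAF array. Keratinocyte markers averaged 8.58 to 9.87 on the CAF arrays and 7.10 to 7.26 on the NDF arrays. Of these 13 of 15, and of the endothelial markers 8 of 10, were higher on every CAF array, and 3 of 6 cartilage markers were lower on every CAF array. Over all genes, 6.78% were higher on every CAF array than on every NDF array, and 8.66% were lower. The 10 fibroblast markers averaged 11.93 to 12.30 on the CAF arrays and 12.05 to 12.22 on the NDF arrays. In such bulk samples a change in the share of a cell type and a change in RNA per cell cannot be told apart. RMA values have no true zero, so no marker could be scored as absent.

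**Figure D1:**
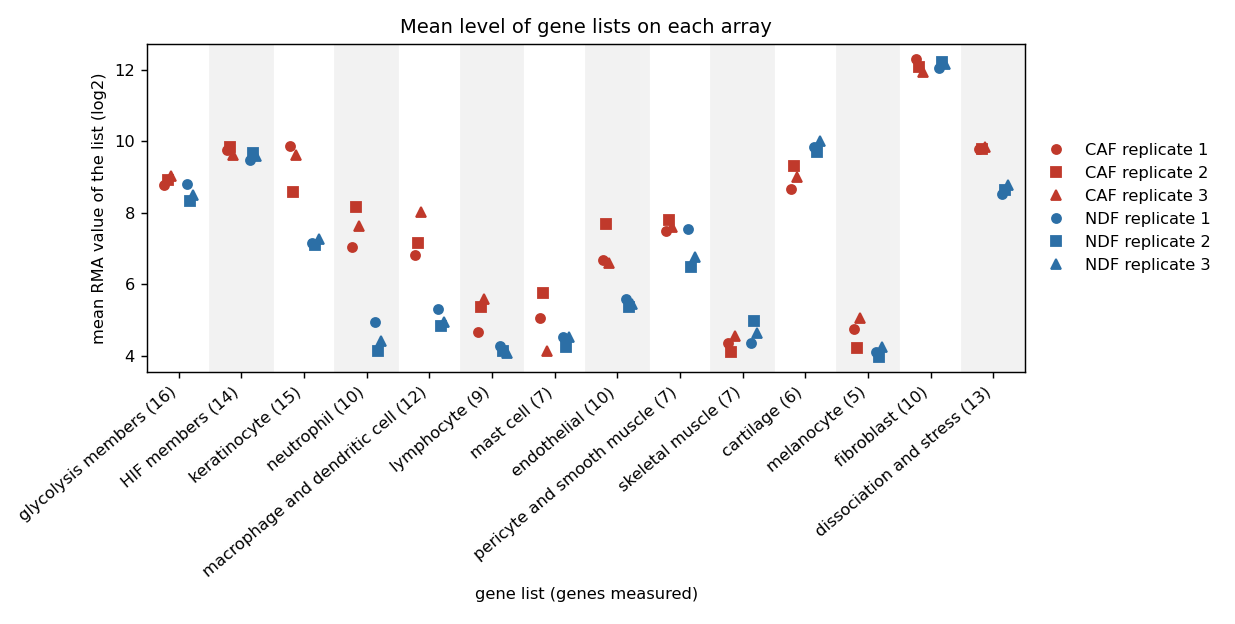
Mean log2 intensity of each gene list (vertical axis) on the 3 CAF and 3 NDF arrays, with the number of genes measured in parentheses; each point is 1 array. Glycolysis genes averaged 8.76 to 9.02 on CAF arrays and 8.32 to 8.80 on NDF arrays, and the HIF genes 9.62 to 9.82 on CAF arrays and 9.48 to 9.67 on NDF arrays, while keratinocyte, neutrophil, macrophage and endothelial markers stood well above NDF on every CAF array.

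No gene of the set passed the test between CAF and NDF, in which each gene was read by its probe set with the highest mean. On these probe sets the largest differences, all towards higher values in CAF, were those of Slc2a3, Adm, Hk2 and Egln3, at 1.96, 1.24, 1.20 and 0.92 (log2). At a limma adjusted p under 0.05, 0 of 30 genes were called, where 0.517% of all genes were, and the lowest adjusted p was 0.169, for Adm. At an unadjusted p under 0.05, 7 of the 30 genes (23.3%) had higher values in CAF, against 4.93% of all genes. These were the glucose transporters Slc2a1 and Slc2a3, the regulatory kinase Pfkfb3, the HIF subunit Epas1, the hydroxylase Egln3 and the targets Ddit4 and Adm. Only Vhl had lower values at that level (1 of 30, 3.33%), where 4.02% of all genes did. The set was chosen with earlier results of these data known, so these shares are not an independent test. Of its 30 genes 29 were at or above the median level of all probe sets, against 11591 of 18193 genes. The part of signal level in the shares was not tested. The count of 7 was 4 without CAF replicate 2 or without NDF replicate 2, and the count of 1 was 0 when any single array other than CAF replicate 3 was left out. All 3 CAF arrays stood above all 3 NDF arrays for 8 of the 30 genes, against 6.78% of all genes, and below them for 3 of the 30, against 8.66%. The median difference was 0.21 for the 16 glycolysis genes (0.0622 with every probe set on its own) and -0.05 for the 14 HIF genes (0.0307 with cyclic loess scaling and 0.0967 with every probe set on its own), beside -0.04 for all genes (log2, CAF minus NDF). The number of arrays limits the precision, and a p above the threshold does not show that levels were equal.

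**Figure D2:**
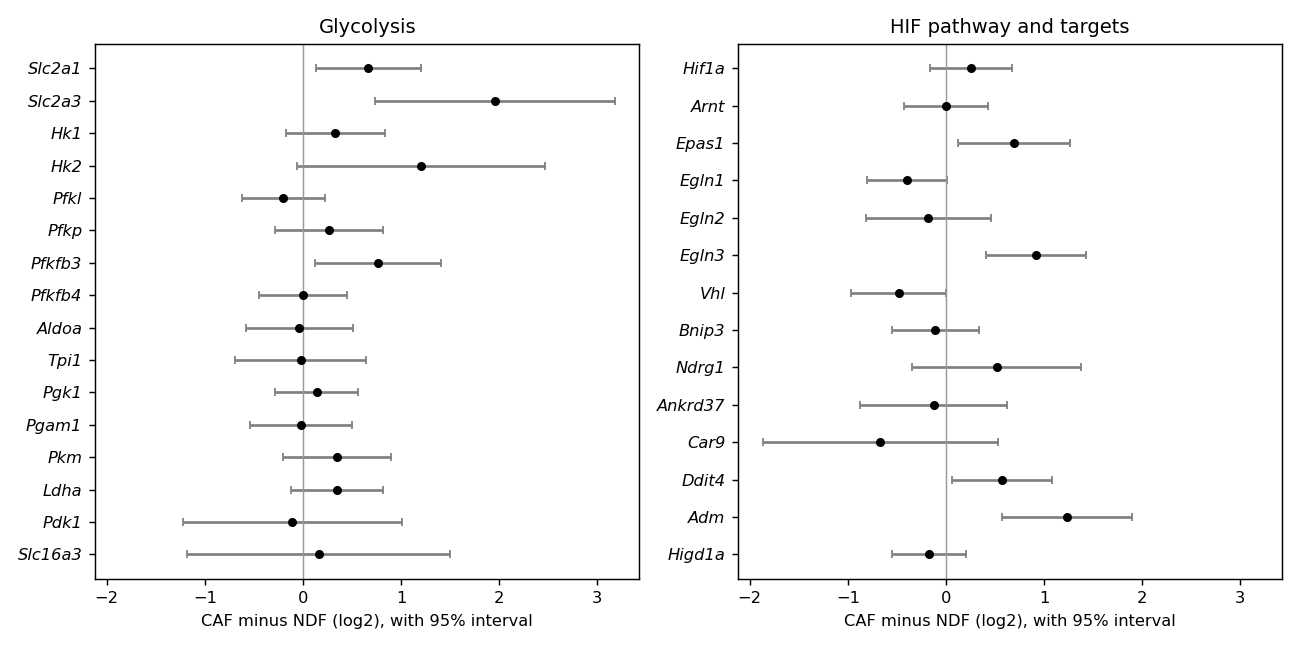
Difference between CAF and NDF (log2, horizontal axis) with its 95% interval from limma, for the 16 glycolysis genes (left) and the 14 HIF genes (right). The intervals exclude 0 for Slc2a1, Slc2a3, Pfkfb3, Epas1, Egln3, Ddit4 and Adm on the positive side and for Vhl on the negative side, and Aldoa, Tpi1, Pgam1, Pfkfb4 and Arnt lie between -0.04 and 0.

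The promoters of the genes with an unadjusted p under 0.05 are shown, except those of Slc2a3 and Epas1, for which no promoter sequence was available. They are shown because HIF binds DNA at a short core, spelled ACGTG or GCGTG, in the genes it controls. Each window holds the 250 bases upstream of a RefSeq transcript start (build GRCm38.p6), written 5′ to 3′ on the strand of the gene. Capitals mark every match to either core on either strand, and CACGTG, the palindrome of the E-box bound by other basic helix-loop-helix factors, matches ACGTG on both strands at once. The mitophagy gene Bnip3, added after its values were seen, is printed as a further known HIF target.
Slc2a1 promoter, chr4:119108495-119108744, plus strand: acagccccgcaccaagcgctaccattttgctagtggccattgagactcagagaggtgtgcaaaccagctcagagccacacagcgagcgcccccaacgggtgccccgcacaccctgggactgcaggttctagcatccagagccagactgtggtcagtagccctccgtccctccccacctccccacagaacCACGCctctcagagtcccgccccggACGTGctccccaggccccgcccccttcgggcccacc
Pfkfb3 first promoter, chr2:11553930-11554179, minus strand: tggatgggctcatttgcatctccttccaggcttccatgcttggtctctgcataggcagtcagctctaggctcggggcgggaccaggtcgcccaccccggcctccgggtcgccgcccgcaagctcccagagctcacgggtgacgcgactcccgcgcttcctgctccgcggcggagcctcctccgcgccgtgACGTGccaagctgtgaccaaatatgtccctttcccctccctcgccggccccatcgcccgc
Pfkfb3 second promoter, chr2:11502091-11502340, minus strand: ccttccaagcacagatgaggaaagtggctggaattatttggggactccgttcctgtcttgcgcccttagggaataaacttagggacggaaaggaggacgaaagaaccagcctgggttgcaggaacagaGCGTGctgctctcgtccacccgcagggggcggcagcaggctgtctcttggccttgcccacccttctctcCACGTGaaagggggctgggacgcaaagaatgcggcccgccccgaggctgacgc
Egln3 promoter, chr12:54203875-54204124, minus strand: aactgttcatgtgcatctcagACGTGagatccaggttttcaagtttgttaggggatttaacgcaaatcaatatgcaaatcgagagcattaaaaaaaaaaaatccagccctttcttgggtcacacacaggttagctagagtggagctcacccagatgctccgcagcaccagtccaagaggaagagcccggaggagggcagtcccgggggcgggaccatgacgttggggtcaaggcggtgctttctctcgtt
Vhl promoter, chr6:113623744-113623993, plus strand: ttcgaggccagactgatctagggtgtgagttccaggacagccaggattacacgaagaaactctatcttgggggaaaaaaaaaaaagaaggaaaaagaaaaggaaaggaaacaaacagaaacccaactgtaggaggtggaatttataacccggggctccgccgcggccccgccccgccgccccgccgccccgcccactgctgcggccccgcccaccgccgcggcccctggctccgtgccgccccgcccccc
Ddit4 promoter, chr10:59951771-59952020, minus strand: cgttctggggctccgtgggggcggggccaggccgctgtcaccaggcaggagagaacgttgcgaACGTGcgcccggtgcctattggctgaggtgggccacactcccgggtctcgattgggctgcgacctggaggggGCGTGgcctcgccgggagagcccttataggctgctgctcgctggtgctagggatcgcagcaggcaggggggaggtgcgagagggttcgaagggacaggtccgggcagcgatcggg
Adm promoter, chr7:110627407-110627656, plus strand: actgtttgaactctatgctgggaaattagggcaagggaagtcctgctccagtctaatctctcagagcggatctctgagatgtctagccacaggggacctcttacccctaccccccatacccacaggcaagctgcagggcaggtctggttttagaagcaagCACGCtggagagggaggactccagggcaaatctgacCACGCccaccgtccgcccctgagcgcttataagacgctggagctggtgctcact
Bnip3 promoter, chr7:138909507-138909756, minus strand: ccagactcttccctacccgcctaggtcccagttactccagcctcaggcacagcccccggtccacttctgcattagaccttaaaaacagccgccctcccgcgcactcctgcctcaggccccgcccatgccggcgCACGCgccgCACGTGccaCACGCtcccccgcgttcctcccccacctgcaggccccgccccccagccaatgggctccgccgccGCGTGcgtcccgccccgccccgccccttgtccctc

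Counted from the transcript start, Slc2a1 held a GCGTG match on the opposite strand at -61 and an ACGTG match at -36. Adm held a pair of GCGTG matches on the opposite strand, at -90 and -54, and Ddit4 1 match to each core, at -187 and -115. The first Pfkfb3 window had ACGTG at -60, and the second a GCGTG at -122 and an E-box palindrome at -53. Egln3 had a single ACGTG far from its start, at -229, and the Vhl window had none. The Bnip3 window had 5 matches, which include an E-box palindrome. At least 1 core was found in 33 of the 40 windows of the set, or 82.5%, against 38.6% of all 32851 RefSeq windows. The 40 windows cover 30 of the listed genes, Gapdh, Gpi1 and Eno1 included. Some windows of Aldoa and of Eno1 overlap and repeat the same matches. The set was chosen to hold known HIF targets, so its share of cores is not an independent test. No window was available for Slc2a3, Epas1, Ndrg1 and Bnip3l. The windows of the set were also richer in G and C, with a median of 62.8% against 52.4%, and the part of base composition in this difference was not tested. Among genes with an unadjusted p under 0.05, 5 of 6 with a window had a match, and among the other measured genes 20 of 21 did. A match is a description of these letters and not a bound site.

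Both glucose transporters of the set, which admit glucose by facilitated diffusion, had their lowest CAF array above their highest NDF array. Slc2a1, the widely expressed GLUT1 transporter, was at 11.76, 12.06 and 12.45 on the CAF arrays, against 11.42, 11.31 and 11.55 on the NDF arrays (log2 intensity, probe set 1434773_a_at). The groups did not overlap, and CAF replicate 3 was the highest. The difference was 0.66 ± 0.22 (SE, 1.58-fold, 95% interval 0.13 to 1.20, limma adjusted p = 0.421). Its 2 other probe sets differed by 0.70 and 0.72 and did not overlap either, so every CAF array was above every NDF array on all 3.

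On the probe sets used, 1 per gene, Slc2a3, the high-affinity GLUT3 transporter known from neurons and leukocytes, had the largest difference of the set. Its values were 8.80, 10.19 and 10.29 on the CAF arrays, against 8.49, 7.04 and 7.86 on the NDF arrays. CAF replicate 1 stood only slightly above NDF replicate 1, and the other CAF arrays were far above every NDF array. The difference was 1.96 ± 0.51 (SE, 3.88-fold, 95% interval 0.74 to 3.18, adjusted p = 0.244). The probe set used, 1455898_x_at, and its neighbour with a difference of 2.10 both carry suffixes for probes that may match other transcripts. The remaining 2 probe sets, at levels near the lower end of the arrays, differed by -0.12 and 0.00, so the direction of Slc2a3 turned when such suffixed probe sets were left out. The same CAF arrays carried higher neutrophil and macrophage markers, as given above, and their part in the Slc2a3 values was not tested.

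Among the measured enzymes and regulators of upper glycolysis, Hk2 and Pfkfb3 had the largest differences. Hk2, the inducible hexokinase that binds mitochondria, was at 8.01, 7.77 and 9.08 in CAF, against 8.13, 6.52 and 6.61 in NDF. NDF replicate 1 reached the level of the CAF arrays, whereas the other NDF arrays lay more than 1 log2 unit below all of them. The difference was 1.20 ± 0.53 (SE, 95% interval -0.06 to 2.46, adjusted p = 0.588). It was 1.73 without NDF replicate 1 and 0.81 without CAF replicate 3, so a single array moved it by a large part of its size. Hk1, the constitutive hexokinase, differed by 0.33 (95% interval -0.18 to 0.84).

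Pfkfb3 encodes the kinase that makes fructose-2,6-bisphosphate, the strongest activator of phosphofructokinase. Its values were 7.98, 8.66 and 8.28 in CAF, against 7.48, 7.93 and 7.22 in NDF. The groups were separated by a narrow gap, between CAF replicate 1 and NDF replicate 2. The difference was 0.76 ± 0.27 (SE, 1.70-fold, 95% interval 0.12 to 1.4, adjusted p = 0.443), and its other, dimmer probe set differed by -0.18. The related kinase Pfkfb4 was close to equal, at 0.00 (95% interval -0.45 to 0.45). The phosphofructokinase subunits Pfkl, the liver form, and Pfkp, the platelet form, differed by -0.20 and 0.27, with groups that overlapped. Aldolase A (Aldoa), which splits the phosphorylated hexose, differed by -0.04 (95% interval -0.58 to 0.51), and its 4 other probe sets by -0.11 to 0.25.

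The 4 tested enzymes of lower glycolysis, Tpi1, Pgk1, Pgam1 and Pkm, had mean differences of at most 0.35 between CAF and NDF. Tpi1, which interconverts the triose phosphates, was at 8.62, 8.25 and 8.89 in CAF, against 9.09, 8.34 and 8.39 in NDF, a difference of -0.02 (95% interval -0.69 to 0.65). The 2 ATP-forming enzymes Pgk1 and Pkm differed by 0.14 (95% interval -0.28 to 0.56) and 0.35 (95% interval -0.20 to 0.90). Pgam1, which moves the phosphate of phosphoglycerate, differed by -0.02 (95% interval -0.54 to 0.50). The groups overlapped for all 4, and NDF replicate 1 was the highest NDF array in each.

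Gapdh, often used as a loading control, was read by its control probe sets. The 3′ set was at 11.64, 11.36 and 11.79 in CAF, against 11.62, 10.89 and 11.07 in NDF. The 5′ set was at 10.40, 9.94 and 10.60 in CAF, against 10.51, 9.39 and 10.09 in NDF. In each of the 3 sets, the middle one included, NDF replicate 1 stood among the CAF arrays, and the groups overlapped. The mean differences of 0.32 to 0.43 (log2, CAF minus NDF) have no test here.

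The genes that direct the fate of pyruvate overlapped between the groups. Ldha, the lactate dehydrogenase subunit that favours lactate formation, was at 10.20, 10.23 and 9.97 in CAF, against 10.05, 9.67 and 9.64 in NDF. NDF replicate 1 overlapped the CAF arrays, and the difference was 0.35 ± 0.20 (SE, 95% interval -0.12 to 0.81, adjusted p = 0.711). Slc16a3, the MCT4 exporter of lactate, was scattered, at 6.16, 7.47 and 5.55 in CAF, against 7.02, 5.57 and 6.11 in NDF. Its difference of 0.16 had a 95% interval of -1.18 to 1.5, the widest of the 16 glycolysis genes. Pdk1, a kinase that limits the oxidation of pyruvate in mitochondria, differed by -0.11 (95% interval -1.23 to 1.01), and its 3 other probe sets by -0.45 to -0.01. Over the 16 glycolysis genes NDF replicate 1 was the highest NDF array for 9, and CAF replicate 3 the highest CAF array for 10.

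**Figure D3:**
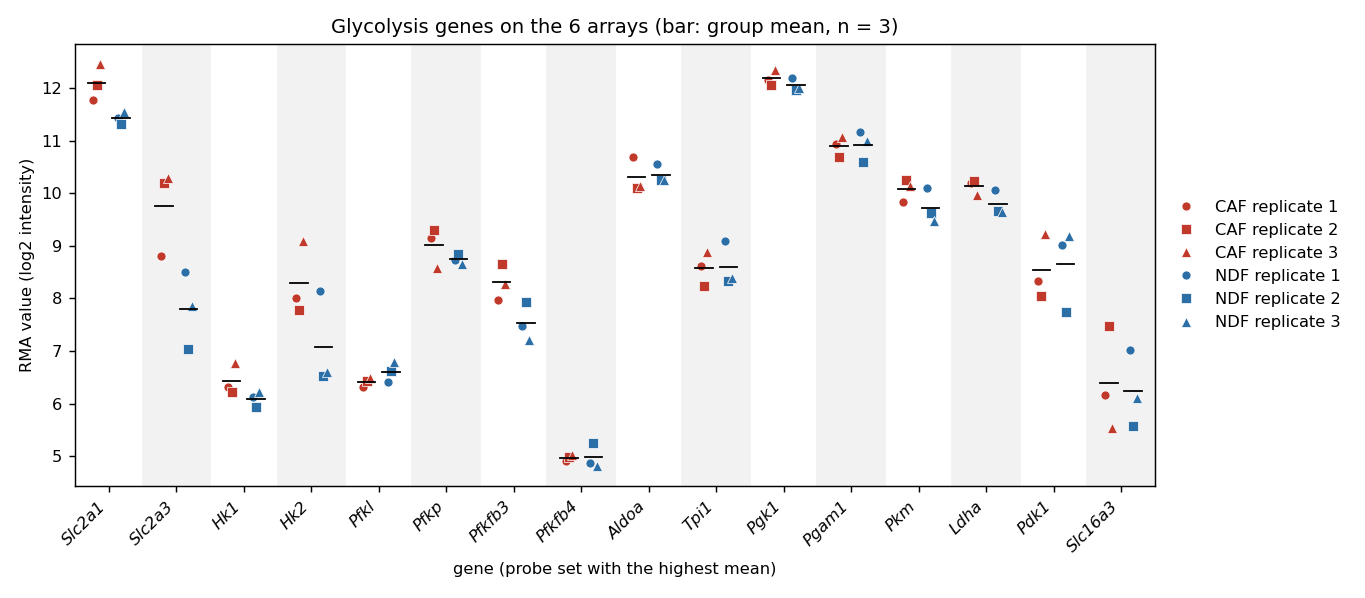
Log2 intensity (vertical axis) of the 16 measured glycolysis genes on each CAF and NDF array, with black bars for group means (n = 3 each). Slc2a1, Slc2a3 and Pfkfb3 are the 3 genes with every CAF array above every NDF array, and NDF replicate 1 lies at CAF level for Hk2.

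Of the HIF subunits, the α subunit gene Epas1 (HIF-2α) was higher on every CAF array, as was Hif1a by a margin too small to see at 2 decimals. Epas1, which is prominent in endothelium, was at 10.52, 11.10 and 10.68 in CAF, against 10.22, 9.74 and 10.26 in NDF. The groups did not overlap, and the difference was 0.69 ± 0.24 (SE, 1.61-fold, 95% interval 0.12 to 1.26, adjusted p = 0.439). The other, dimmer probe set of Epas1 differed by 0.25, with groups that overlapped. Endothelial markers averaged 6.60 to 7.68 on the CAF arrays and 5.35 to 5.57 on the NDF arrays, and their part in the Epas1 values was not tested. Hif1a, the ubiquitous α subunit, was at 12.02, 12.08 and 12.28 in CAF, against 12.02, 11.83 and 11.78 in NDF, a difference of 0.25 (95% interval -0.17 to 0.67). Its 3 other probe sets differed by -0.42 to 0.28 and did not settle a direction. The common partner Arnt was equal to the second decimal, at 0.00 (95% interval -0.42 to 0.42), while its 4 other probe sets differed by -0.38 to -0.09.

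Among the genes that mark HIF for degradation, Egln3 had higher values in CAF and the other 3 had lower means. Egln3, a prolyl hydroxylase that HIF itself induces, was at 6.91, 6.58 and 7.16 in CAF, against 5.78, 6.03 and 6.07 in NDF (probe set 1418649_at). The groups were clearly apart, and the difference was 0.92 ± 0.21 (SE, 1.89-fold, 95% interval 0.41 to 1.43, adjusted p = 0.181). Its other probe set differed by 0.34, with CAF replicate 3 high at 6.98 and the remaining arrays between 5.61 and 5.96. With array quality weights, which gave CAF replicate 3 a weight of 0.167, the adjusted p of Egln3 was 0.0432, in an analysis that called 2.41% of all genes, and it ranged from 0.0432 to 0.534 over the 19 alternatives.

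Egln1, the main oxygen sensor of most cells, had the opposite sign. It was at 10.45, 10.20 and 10.42 in CAF, against 10.81, 10.65 and 10.82 in NDF, and its other probe set at 6.92, 6.63 and 5.42 in CAF, against 7.05, 7.02 and 7.60 in NDF. Neither probe set overlapped between the groups. The difference was -0.40 ± 0.17 (SE, 95% interval -0.81 to 0.01, adjusted p = 0.570), and -0.90 for the other probe set. Vhl, the substrate receptor of the ubiquitin ligase that removes HIF α, was at 11.16, 11.13 and 10.65 in CAF, against 11.49, 11.49 and 11.42 in NDF. CAF replicate 3 was the lowest, and all CAF arrays lay below all NDF arrays, with a difference of -0.48 ± 0.20 (SE, 95% interval -0.96 to -0.00298, adjusted p = 0.554). Without CAF replicate 3 it was -0.32. The other, dimmer probe set of Vhl differed by -0.11, with groups that overlapped. Egln2, the third hydroxylase of the family, overlapped between groups at -0.18 (95% interval -0.82 to 0.46).

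**Figure D4:**
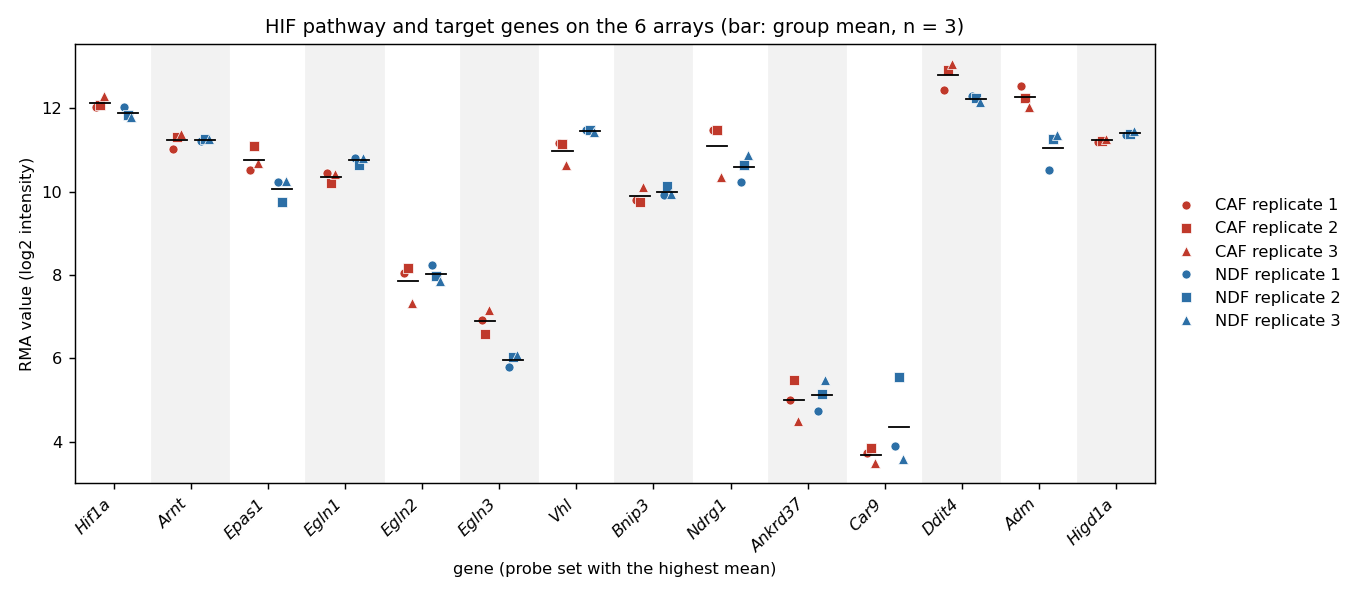
Log2 intensity (vertical axis) of the 14 measured HIF pathway and target genes on each CAF and NDF array, with black bars for group means (n = 3 each). Every CAF array is above every NDF array for Hif1a, Epas1, Egln3, Ddit4 and Adm, and below for Egln1, Vhl and Higd1a.

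Among the HIF targets, Adm had the smallest p of the set. Adm encodes adrenomedullin, a peptide that dilates vessels and is also induced by cytokines. It was at 12.54, 12.25 and 12.04 in CAF, against 10.52, 11.26 and 11.35 in NDF (probe set 1447839_x_at), and its other probe set at 9.56, 8.91 and 8.85 in CAF, against 5.51, 7.49 and 6.97 in NDF. The groups stood apart on both, with NDF replicate 1 the lowest array. The difference was 1.24 ± 0.28 (SE, 2.35-fold, 95% interval 0.57 to 1.90, adjusted p = 0.169), and 2.45 ± 0.52 for the other probe set (adjusted p = 0.218 over all probe sets). The adjusted p was 0.0380 with array quality weights, the lowest of 19 alternatives, and at most 0.395 in the others.

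Ddit4, an inhibitor of mTOR signalling induced by hypoxia, glucocorticoids and other stress, was at 12.44, 12.91 and 13.07 in CAF, against 12.30, 12.24 and 12.15 in NDF. The groups did not overlap, and the difference was 0.57 ± 0.21 (SE, 1.49-fold, 95% interval 0.06 to 1.08, adjusted p = 0.486). Immediate-early and stress genes that respond to tissue dissociation averaged 9.77 to 9.84 on the CAF arrays and 8.51 to 8.78 on the NDF arrays. Of the 13 measured, 9 were higher on every CAF array, against 6.78% of all genes, while Jun, Dnajb1, Hspa1a and Hspa1b overlapped between the groups. The part of these genes in the Ddit4 and Adm values was not tested. Ndrg1, a stress-induced differentiation gene, was at 11.48, 11.47 and 10.34 in CAF, against 10.22, 10.65 and 10.87 in NDF. CAF replicate 3 alone lay among the NDF arrays, and the difference was 0.52 with it and 0.89 without it (adjusted p = 0.797 and 0.177, and 0.164 to 0.999 over the 19 alternatives). Its 4 other probe sets differed by 0.39 to 0.72, all in the same direction.

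For none of the other HIF targets were all CAF arrays above all NDF arrays. Bnip3, a receptor that sends mitochondria to autophagy, was at 9.79, 9.76 and 10.12 in CAF, against 9.92, 10.13 and 9.95 in NDF, a difference of -0.11 (95% interval -0.55 to 0.33). Car9, the surface carbonic anhydrase IX widely used as a hypoxia marker, was at 3.72, 3.84 and 3.48 in CAF, against 3.89, 5.56 and 3.58 in NDF. Only NDF replicate 2 stood off the low end of the scale, and the difference of -0.67 became -0.06 without that array. Ankrd37 differed by -0.13 (95% interval -0.87 to 0.62). Higd1a, a small mitochondrial protein, had every CAF array below every NDF array by a narrow margin, at -0.17 (95% interval -0.55 to 0.20), while its 2 other probe sets differed by 0.45 and -0.41.

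**Figure D5:**
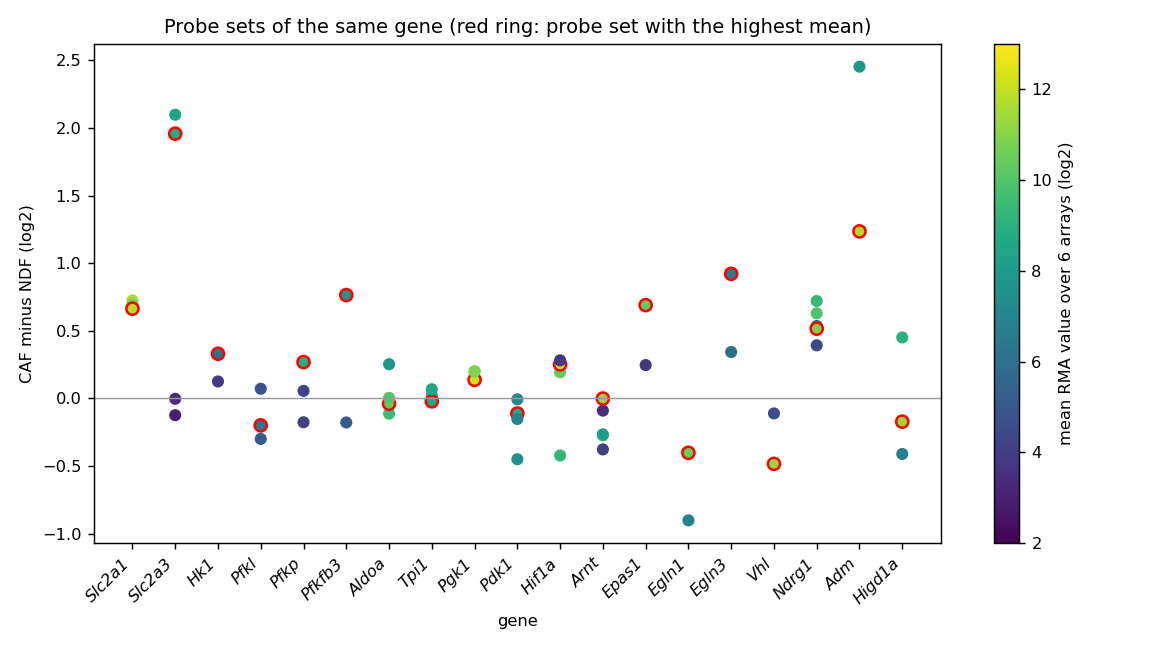
Difference between CAF and NDF (log2, vertical axis) of every probe set of the 19 genes with more than 1, coloured by mean level over the 6 arrays, with a red ring on the probe set used for the gene. Of the 40 other probe sets 29 had the sign of the ringed one; all probe sets of Slc2a1, Ndrg1 and Adm lie above 0 and both of Egln1 below it, while those of Slc2a3 and Higd1a are split.

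Each of the 70 probe sets was also tested on its own. None passed the limma test adjusted over all 45037 probe sets, where 0.162% did, and 13 had higher and 1 lower values in CAF at an unadjusted p under 0.05, against 3.82% and 3.18% of all probe sets. Probe sets of 1 gene share transcripts and are not independent.

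Other genes of the same pathways were also without a call. Their lists were drawn up from textbook knowledge, but with earlier results of these data known. Of 28 other genes of glycolysis and pyruvate use none passed, 2 had higher (7.14%, against 4.93% of all genes) and none lower values at an unadjusted p under 0.05, and the median difference was 0.12. Gpd2, the mitochondrial enzyme of the glycerol phosphate shuttle, differed by 0.52 (adjusted p = 0.514), the insulin-responsive transporter Slc2a4 by 1.5 (adjusted p = 0.531) and the lactate transporter Slc16a1 by 0.51 (adjusted p = 0.558). The other probe sets of Slc2a4 and Slc16a1 differed by 0.08 and -0.15. Of 8 pentose phosphate genes 1 had higher values at that level (12.5%, a single gene, against 4.93% of all genes), the transketolase gene Tkt, at 0.66 (adjusted p = 0.427), followed by Pgd at 0.39 and Taldo1 at 0.56. The 2 other probe sets of Tkt had a median difference of 0.04. Of 17 genes of the tricarboxylic acid cycle none reached it in either direction, with a median of -0.04. The smallest p values there belonged to Sdhc and Idh3a, at -0.53 and -0.52, and Mdh2, at 0.44.

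Among 43 other HIF pathway and target genes the directions were mixed, with 7 having higher values and 5 having lower ones in CAF at the unadjusted level, a median of -0.12 and none past the adjusted threshold. These counts are 16.3% and 11.6% of the list, against 4.93% and 4.02% of all genes. Stc1, which encodes the secreted glycoprotein stanniocalcin-1, was at 9.74, 10.21 and 10.94 in CAF, against 8.34, 7.37 and 7.33 in NDF, a difference of 2.62 ± 0.40 (SE, adjusted p = 0.0563). The groups did not overlap, and the other probe set of Stc1 had a difference of 0.20. Car12, a membrane carbonic anhydrase, differed by 1.81 (adjusted p = 0.148), and the chemokine receptor gene Cxcr4, also carried by leukocytes, by 2.00 (adjusted p = 0.157). For Car12 the 2 other probe sets gave a median difference of 0.13. The remaining higher genes, named after their values were seen, were Arnt2, Angptl4, Hmox1 and Bhlhe40, at 0.96, 0.76, 0.58 and 0.55. Other probe sets gave a median of -0.13 for Arnt2 and a difference of 0.12 for Angptl4. The 5 lower genes, also named after their values were seen, were Plod1, P4ha1 and Lox, whose products modify collagen, the transferrin receptor gene Tfrc and Narf. Their differences ran from -1.51 to -0.53, and the other probe sets of each had medians from -1.98 to -0.07, the smallest in size being that of Plod1.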

How the data were processed

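The deposited values are log2 intensities of Affymetrix mouse genome arrays, made by the authors with GCOS and RMA per the submitters' processing notes; their versions, and a genome build, were not given in the sources used here. RMA subtracts background, equalises array distributions and summarises each probe set, so low values are compressed and differences of dim genes understated. Per the labels' protocols, a single round of WT-Ovation amplification preceded labelling, which can widen differences in coverage of transcript ends. Probe sets were named from the platform annotation: of 45037 that are not controls, 34945 name 1 gene, 932 several and 9160 none. Symbols were looked up in RefSeq (34741 matched, 0 updated). Each gene was represented by its probe set with the highest mean over the 6 arrays.

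Differences were taken as CAF minus NDF and tested in limma 3.58.1 and R 4.3.3 (lmFit, eBayes, two-sided, group as the only term, prior with 2.79 degrees of freedom), adjusted by Benjamini-Hochberg over 18193 genes, without a filter. The fit was tested on simulated data. Lists were described by counts and medians, with no set test. Every member is named, and of each other pathway list the 3 genes with the smallest p. Bnip3's promoter and the remaining genes of the other HIF list at an unadjusted p under 0.05 were added after their values were seen. The members and lists were chosen with earlier results of these data known. No 2 arrays were duplicates, and no batch is labelled. Alternatives covered normalization, dim filters, probe set choice, variance model, replicate block and left-out arrays. Figures used matplotlib 3.10.9.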

Additional observations from a re-analysis of the deposited data

How the results depend on the processing

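Under 19 alternatives, 524 of 563 member differences kept their direction. The 39 that did not belonged to 10 genes whose interval holds 0, with differences of at most 0.20 in size, and to Slc2a3, which was -0.12 without the probe sets suffixed _s_at, _x_at and _a_at. Part of the 563 could not turn, because some alternatives leave the difference of a gene as it was. These were the replicate block, either dim filter, the intensity trend, the robust prior and the used probe set in the fit of every probe set. Adm and Egln3 kept an unadjusted p under 0.05 in all 19. The count of members called was 2 (Adm and Egln3) with array quality weights and 0 otherwise. The count of all genes called was 20 with the replicate block, 155 with an intensity trend, 438 with array quality weights, and 5 to 156 when 1 array was left out (5, 8 and 11 without NDF replicate 3, 2 or 1, 40 without CAF replicate 2, 156 without CAF replicate 3); the cause was not tested. Members higher at an unadjusted p numbered 13 with every probe set on its own (of 70) and 4 to 8 with 1 array left out (4 without CAF replicate 2 or NDF replicate 2). Members lower numbered 2 with an intensity trend or array quality weights. They numbered 0 with the replicate block, quantile normalization again, cyclic loess, either dim filter, without suffixed probe sets, with a robust prior and without CAF replicate 3 and NDF replicate 1 together, and 0 to 1 with 1 array left out (1 only without CAF replicate 3). The median of the HIF genes was 0.0307 with cyclic loess, 0.0967 with every probe set on its own, 0.0564 without CAF replicate 3 and NDF replicate 1 together, and -0.0458 to 0.0988 with 1 array left out. The median of the glycolysis genes lay between 0.0622, with every probe set on its own, and 0.33, without CAF replicate 3 and NDF replicate 1 together. Same-numbered arrays did not deviate together (correlations of -0.14, 0.14 and -0.04), and those of different number gave -0.12 to 0.15. Such correlations cannot show whether same-numbered samples were collected or processed together, and the labels do not state it. With the replicate block 5 members were higher at an unadjusted p. With 3 arrays per group, the median standard error over all genes was 0.25, which limits the differences that could be called.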
